A study of Mus musculus with 6 samples.

Results

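The 41 genes described here encode actins, myosin II subunits, actin-binding proteins and the transcription factors that control them, and they were found among the 34745 genes of the count table by their symbols. The list was selected on the counts themselves, because those restricted to smooth muscle were much lower with a KAT8 inhibitor than with DMSO, beside relatives that macrophages also express. The difference between the pretreatments therefore chose the members, and their values are given as a description, with no test. By textbook tissue distribution 14 members were classed as muscle-enriched, 17 as broadly expressed, 4 as other non-muscle genes, 3 as regulators and 3 as inducible targets. The classes were written with earlier results of these data known, so differences between them are a description too. Some muscle-enriched genes, Tpm1 and Cald1 among them, also make products for other cells.

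Messenger RNA was sequenced from wild-type mouse bone marrow-derived macrophages, primary cells grown out of marrow in M-CSF (20 ng/ml), a macrophage growth factor. The inhibitor group comprised 3 libraries from cells pretreated with an inhibitor of KAT8, a lysine acetyltransferase of histone H4, and then given R848 at 100 ng/ml for 6 h. The DMSO group comprised 3 libraries from cells pretreated with DMSO, a solvent, and given the same R848, a small-molecule agonist of Toll-like receptors. The inhibitor, its dose, the length of pretreatment, and the sex and age of the mice are not named in the labels, and unstimulated cells were not analysed here.

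Actin filaments slide against myosin II when the myosin regulatory light chain is phosphorylated, and tropomyosin, calponin and caldesmon sit along the filament and tune that sliding. Each of these proteins exists as relatives from separate genes, some used by nearly every cell and some made chiefly in muscle. Many of the genes are targets of serum response factor, SRF, which binds a short DNA element called the CArG box and works with coactivators of the myocardin family. Unpolymerised actin holds the coactivators Mrtfa and Mrtfb in the cytoplasm. Macrophages use the non-muscle machinery to crawl and engulf, and the muscle proteins mark smooth muscle cells, pericytes and activated fibroblasts.

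Library totals were 23037820 to 25089320 counts with the inhibitor and 18441352 to 24429778 with DMSO, and 3 counts, the limit that a count of 0 allows, corresponded to 0.12 to 0.163 CPM, counts scaled to library size. No library stood apart from its group: the first principal component held 70.5% of the variance and separated the groups. With a log2 fold change of inhibitor over DMSO and edgeR's quasi-likelihood test, 3446 of the 13815 tested genes were called higher and 3667 lower at an adjusted p under 0.05. Scaling by library totals alone in place of TMM shifted the all-gene median by 0.11 (log2) and gave 4888 genes higher and 2842 lower. Whether each library came from its own animal or culture is not labelled. The p-values therefore reflect only variation among the 6 libraries, possibly technical. In such bulk cultures, fewer cells of a type and less RNA per cell cannot be told apart. All 11 macrophage markers looked for were detected in both groups. Of these 11, 8 were called lower with the inhibitor and 0 higher, and Csf1r, the M-CSF receptor, was not called, at 463 ± 4.9 CPM with the inhibitor and 474 ± 30.2 CPM with DMSO (SD, n = 3 each). Marker genes of other cell types were also detected, and their values are given with the last comparisons.

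Of the 41 members, 40 passed the filter on low counts. Among these 40, 36 were called lower with the inhibitor, 0 were called higher and 4 were not called. Over all tested genes 26.5% were called lower and 24.9% higher, 51.5% in either direction, and nothing is read from the comparison because the same contrast chose the members. A fold of 2 or more with a call was reached by 15 members, against 6.86% of all tested genes. Both groups of 3 libraries were separate, with the inhibitor lower, for 36 members, against 30.3% of all tested genes. They were separate with the inhibitor higher for 1 member, Mkl2, and that share over all genes was also 30.3%. The median log2 fold change was -0.78 over the tested members and 0.01 over all tested genes. Vil1, which encodes the microvillus protein villin, was the member left untested, with 0, 2 and 2 counts in the inhibitor libraries and 6, 0 and 0 in the DMSO libraries. Its final bases also overlap those of Usp37 on the opposite strand.

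The classes differed in size of change, and because that difference is part of the rule that picked the members, it is no independent result. All 14 muscle-enriched members were lower with the inhibitor, 13 of them by 2-fold or more, and their median log2 fold change was -1.86 with a range of -4.82 to -0.75. Of the 17 broadly expressed members 15 were called lower and 1 by 2-fold or more, with a median of -0.62 and a range of -1.26 to 0.07. The summed level of the muscle-enriched class was 741 to 849 CPM with the inhibitor and 2263 to 2282 CPM with DMSO. For the broadly expressed class the sum was 8791 to 9338 CPM with the inhibitor and 11601 to 12997 CPM with DMSO. The ranges of the classes met: 11 of the 14 muscle-enriched members had a lower log2 fold change than every broadly expressed member, and 5 of the 17 broadly expressed members had a lower one than Cald1. Actg2 and Lmod1 passed the filter only through their DMSO libraries and so had to differ, and without them the muscle-enriched median was -1.65.

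**Figure D1:**
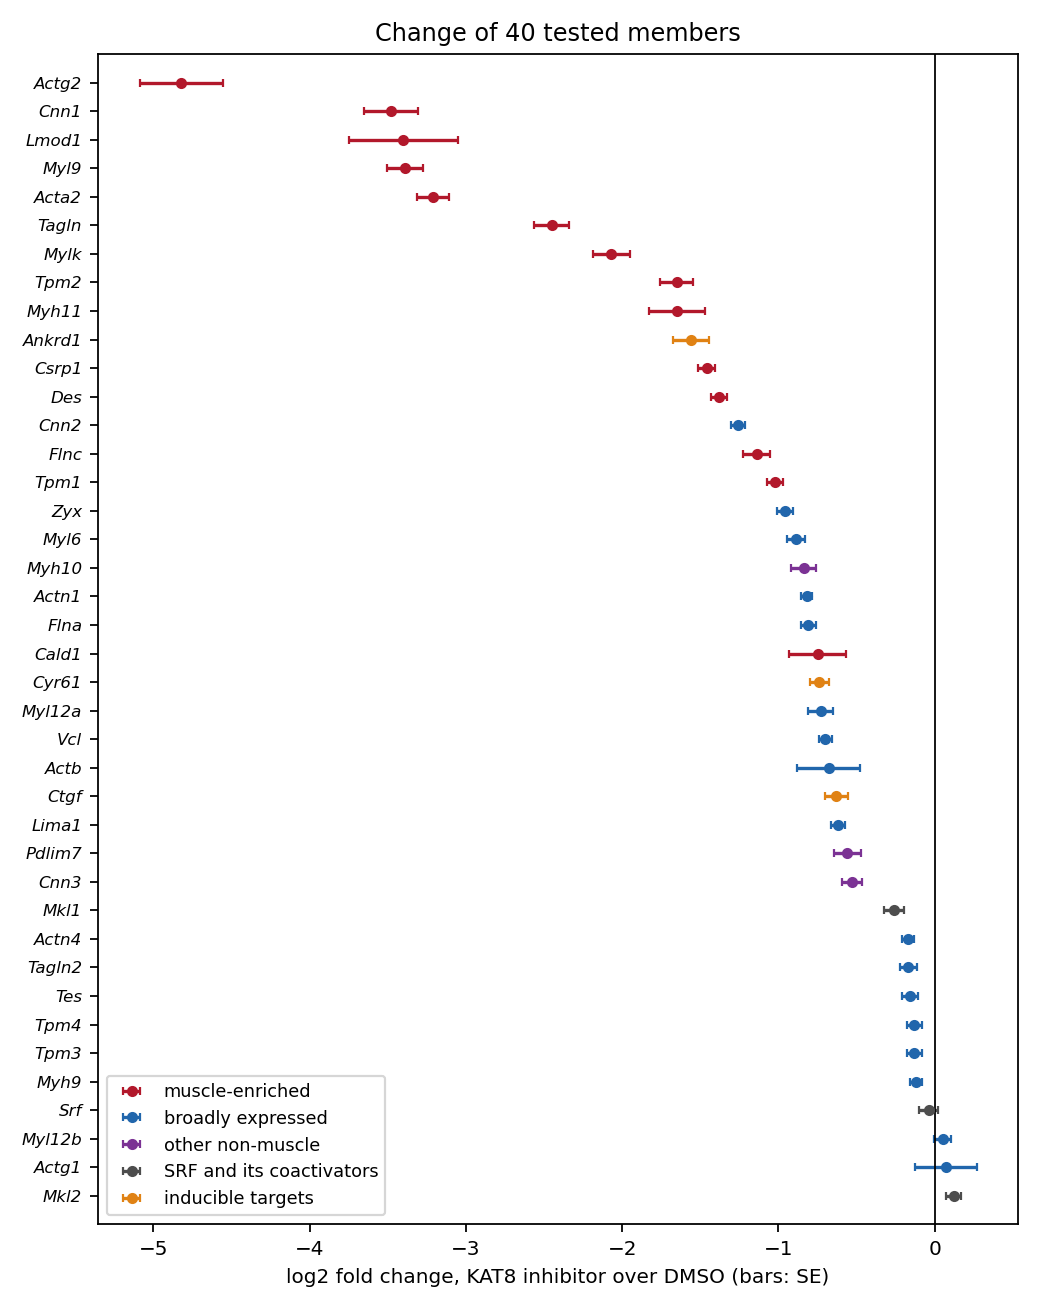
Log2 fold change of inhibitor over DMSO on the x axis for each of the 40 tested members on the y axis, coloured by class, with bars for the standard error. Muscle-enriched members run from -4.82 for Actg2 in the top row to -0.75 for Cald1. Members of other classes, among them Ankrd1 (-1.56) and Cnn2 (-1.26), lie between these. Srf, Actg1, Myl12b and Mkl2 lie around 0.

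Among the actins, the smooth muscle forms differed far more than the cytoplasmic forms. Mouse smooth muscle actins come from Acta2, the α-actin of vessel walls and activated fibroblasts (ENSMUSG00000035783, GRCm38 chromosome 19, 34241090 to 34255590, minus strand), and from Actg2, the γ-actin of gut smooth muscle (ENSMUSG00000059430, chromosome 6, 83512905 to 83536265, minus strand). The cytoplasmic actins of all cells come from Actb (chromosome 5) and Actg1 (chromosome 11). The last 60 coding bases before the stop codon, from the GENCODE M21 transcripts, are shown because within the coding part reads of these genes are told apart by scattered single-base changes. Their untranslated parts were not compared. Capitals mark bases that differ from Actb.
Acta2: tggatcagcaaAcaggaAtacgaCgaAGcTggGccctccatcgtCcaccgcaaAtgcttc
Actg2: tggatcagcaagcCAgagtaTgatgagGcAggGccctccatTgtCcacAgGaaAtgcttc
Actb: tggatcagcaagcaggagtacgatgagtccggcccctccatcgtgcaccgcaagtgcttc
Actg1: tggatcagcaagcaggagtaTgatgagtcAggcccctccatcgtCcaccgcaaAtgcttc
In this stretch Acta2 differed from Actb at 9 bases, Actg2 at 11 and Actg1 at 4. Over the coding sequence Actb and Actg1 were 88.7% identical with a longest identical run of 62 bases, while Acta2 was 83.8% identical to Actg2 and 83.0% to Actb. Reads that fall within such runs can match more than 1 actin, and how they were counted is not given in the sources used here.

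Acta2 stood at 52.5, 41.8 and 55.7 CPM in the inhibitor libraries, against 483, 453 and 451 CPM in the DMSO libraries. The lowest DMSO library was several times above the highest inhibitor library, and both groups were tight. The log2 fold change was -3.21 (SE 0.102), a 9.24-fold lower level with the inhibitor. Actg2 had 5, 2 and 5 counts in the inhibitor libraries, against 90, 111 and 98 counts in the DMSO libraries. Its inhibitor counts were near the limit of detection, and the fitted log2 fold change of -4.82 (SE 0.267) rests on them.

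The cytoplasmic actins were less uniform between libraries. Actb stood at 930, 1499 and 1533 CPM with the inhibitor, against 2583, 2068 and 1710 CPM with DMSO, a log2 fold change of -0.68 (SE 0.204). Its groups did not overlap, its lowest value was that of the first inhibitor library and its highest that of the first DMSO library. Without the first DMSO library the log2 fold change was -0.52 and Actb was no longer called. Actg1 stood at 1273, 1288 and 1193 CPM with the inhibitor, against 928, 1660 and 980 CPM with DMSO. Its inhibitor libraries all lay inside the DMSO range, the log2 fold change was 0.07 (SE 0.197), and without the second DMSO library it was 0.39 and called. The ratio of Actb to Actg1 counts was 0.73, 1.16 and 1.28 with the inhibitor and 2.78, 1.25 and 1.74 with DMSO, so these ratios overlapped. Among genes at 100 CPM or more, 3 of 24 members (12.5%) had a spread of at least 1.5-fold within a group, against 57 of 2082 such genes (2.74%), and the 3 were Actb, Actg1 and Cald1. The summed level of Actb and Actg1 was 2202, 2787 and 2726 CPM with the inhibitor and 3511, 3729 and 2690 CPM with DMSO.

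Among the myosin genes, the muscle form of the regulatory light chain moved apart from its non-muscle counterparts. Myl9, the smooth muscle regulatory light chain (ENSMUSG00000067818, GRCm38 chromosome 2, 156775420 to 156781658, plus strand), stood at 3.0, 2.2 and 2.7 CPM in the inhibitor libraries, against 29.3, 27.2 and 26.6 CPM in the DMSO libraries. The groups were far apart, with a log2 fold change of -3.39 (SE 0.116). Myl12a, a non-muscle regulatory light chain, stood at 263, 249 and 259 CPM with the inhibitor, against 370, 465 and 445 CPM with DMSO, a log2 fold change of -0.73 (SE 0.0804). Myl12b, its neighbour on chromosome 17 and near relative, stood at 125, 119 and 121 CPM with the inhibitor, against 110, 124 and 118 CPM with DMSO. Those groups overlapped, and the log2 fold change was 0.05 (SE 0.0536), or 0.16 and called higher with library totals. These genes do not overlap each other, but a further annotated entry with the symbol Myl12b, for which no counts were used here, shares exon bases with both on the same strand. Myl6, the essential light chain of smooth and non-muscle myosin, had a log2 fold change of -0.89 (SE 0.0571), with 191 to 200 CPM in the inhibitor libraries and 337 to 387 CPM in the DMSO libraries.

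The myosin heavy chains and the light chain kinase followed. Myh11, the smooth muscle heavy chain, stood at 1.08, 1.24 and 1.04 CPM with the inhibitor, against 3.2, 3.32 and 4.01 CPM with DMSO, a log2 fold change of -1.65 (SE 0.181). It was scarce in both groups and did not overlap. Mylk, the kinase that phosphorylates the regulatory light chain, stood at 3.12, 3.48 and 3.2 CPM with the inhibitor, against 15.0, 14.0 and 12.2 CPM with DMSO, a log2 fold change of -2.07 (SE 0.118). Myh10, a non-muscle heavy chain, averaged 46.9 ± 2.16 CPM with the inhibitor and 83.8 ± 8.31 CPM with DMSO (SD, n = 3 each), a log2 fold change of -0.84. Myh9, the main non-muscle heavy chain of macrophages, averaged 1239 ± 21.9 CPM with the inhibitor and 1345 ± 28.8 CPM with DMSO. Its log2 fold change of -0.12 (SE 0.0396) was small, and the call was lost in each fit that left out a library except the one without the first DMSO library.

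Calponin and transgelin, which bind along actin filaments, showed the same order. Cnn1, the smooth muscle calponin, had 17, 12 and 15 counts in the inhibitor libraries, against 127, 151 and 143 counts in the DMSO libraries, a log2 fold change of -3.48 (SE 0.171). Cnn2, the calponin that macrophages express, stood at 95.4, 94.1 and 88.4 CPM with the inhibitor, against 217, 225 and 222 CPM with DMSO. With a log2 fold change of -1.26 (SE 0.045) it was the lowest of the broadly expressed members and lower than the muscle-enriched Flnc, Tpm1 and Cald1. Cnn3, an acidic calponin of many non-muscle cells, had a log2 fold change of -0.53 (SE 0.0617).

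Tagln, which encodes transgelin or SM22α, an early smooth muscle marker (ENSMUSG00000032085, GRCm38 chromosome 9, 45929619 to 45936058, minus strand), stood at 60.5, 45.0 and 62.5 CPM in the inhibitor libraries, against 314, 297 and 305 CPM in the DMSO libraries. The groups were far apart, with a log2 fold change of -2.45 (SE 0.113). Its exons share 1349 bases with genes on the opposite strand, among them Pcsk7, and whether counting used strand is not given in the sources used here. Pcsk7 itself averaged 43.2 ± 2.57 CPM with the inhibitor and 37.3 ± 2.6 CPM with DMSO, a log2 fold change of 0.22, opposite in sign to that of Tagln. Tagln2, a transgelin of many cells, blood cells included, averaged 589 ± 10.8 CPM with the inhibitor and 664 ± 44.9 CPM with DMSO, a log2 fold change of -0.17 (SE 0.0539), and its call was lost in 5 of the 6 fits that left out a library.

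Tropomyosins lie end to end along the filament. Tpm2, a muscle tropomyosin, stood at 23.3, 19.3 and 25.3 CPM with the inhibitor, against 75.5, 72.9 and 64.2 CPM with DMSO, a log2 fold change of -1.65 (SE 0.105). Tpm1, whose splice forms serve muscle and other cells, stood at 161, 149 and 153 CPM with the inhibitor, against 329, 300.0 and 314 CPM with DMSO, a log2 fold change of -1.02 (SE 0.0505). Both genes were separate between groups, and counts per gene do not show which splice form moved. Tpm3 and Tpm4, which make non-muscle tropomyosins, each had a log2 fold change of -0.13, and both lost their calls in most fits that left out a library and with library totals. Lmod1, a smooth muscle leiomodin that nucleates actin filaments, had 6, 2 and 6 counts with the inhibitor, against 42, 40 and 47 counts with DMSO, a log2 fold change of -3.40 (SE 0.35). Cald1, caldesmon, which restrains myosin on the filament, stood at 261, 250.0 and 157 CPM with the inhibitor, against 314, 395 and 417 CPM with DMSO. The inhibitor library of replicate 3 was low and the DMSO library of replicate 1 was nearest to the inhibitor group. The log2 fold change was -0.75 with an SE of 0.185.

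**Figure D2:**
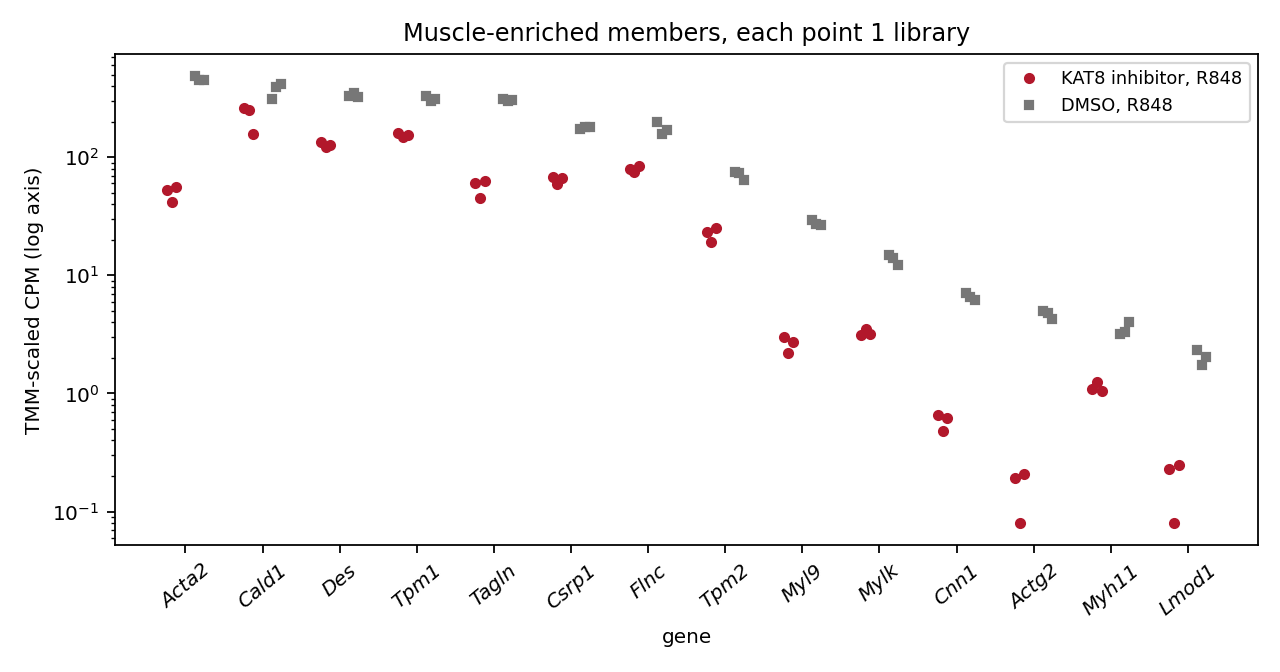
TMM-scaled CPM on a log y axis for the 14 muscle-enriched genes on the x axis, 1 point per library, with the inhibitor libraries as circles on the left and the DMSO libraries as squares on the right of each gene. The groups are separate for every gene, widely for Acta2 (41.8 to 55.7 against 451 to 483 CPM) and narrowly for Cald1 (157 to 261 against 314 to 417 CPM).

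Cross-linkers and adhesion proteins tie filaments to each other and to the membrane. Flnc, the muscle filamin, stood at 80.0, 74.3 and 84.0 CPM with the inhibitor, against 197, 158 and 169 CPM with DMSO, a log2 fold change of -1.14 (SE 0.0842). Flna, the filamin of nearly all cells, stood at 1329, 1293 and 1282 CPM with the inhibitor, against 2222, 2406 and 2202 CPM with DMSO, a log2 fold change of -0.81 (SE 0.0483). In both filamins the groups were separate. Des, the muscle intermediate filament protein desmin, stood at 135, 122 and 128 CPM with the inhibitor, against 331, 348 and 325 CPM with DMSO, a log2 fold change of -1.38 (SE 0.0503). Csrp1, a LIM protein of smooth muscle and other cells, had a log2 fold change of -1.46 (SE 0.0566), with 59.9 to 68.0 CPM with the inhibitor and 174 to 182 CPM with DMSO.

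Among members of stress fibres and the adhesion plaque, close relatives and binding partners differed in size of change. Actn1, an α-actinin that bundles stress fibres, averaged 418 ± 4.52 CPM with the inhibitor and 736 ± 8.83 CPM with DMSO (SD, n = 3 each), a log2 fold change of -0.82 (SE 0.0365). Actn4, the near relative of Actn1, averaged 447 ± 6.68 CPM with the inhibitor and 504 ± 13.0 CPM with DMSO, a log2 fold change of -0.17 (SE 0.039) whose call was lost with library totals. Zyx, the LIM protein zyxin, averaged 80.4 ± 2.9 CPM with the inhibitor and 157 ± 6.79 CPM with DMSO, a log2 fold change of -0.96 (SE 0.0498). Tes, testin, a LIM protein that binds zyxin, averaged 94.0 ± 4.95 CPM with the inhibitor and 105 ± 3.79 CPM with DMSO, a log2 fold change of -0.16 (SE 0.053) whose call was lost in 4 of the 6 fits that left out a library.

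Vcl, vinculin, the link between integrin complexes and actin, had a log2 fold change of -0.70 (SE 0.044). It shares 2090 exon bases with Ap3m1 on the opposite strand, a gene at 70.4 ± 13.9 CPM with the inhibitor and 56.0 ± 23.1 CPM with DMSO whose groups overlapped. Lima1, a LIM protein that cross-links filaments, had a log2 fold change of -0.62 (SE 0.0454). Pdlim7, a PDZ and LIM protein of the actin cytoskeleton, had one of -0.56 (SE 0.087). All of these groups were separate, with the inhibitor lower.

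Counted per kilobase of exon, the muscle-enriched relatives made up a smaller share of their families with the inhibitor. These shares do not depend on the scaling between libraries, and they rest on the same contrast that chose the members. Acta2 and Actg2 together were 2.83%, 1.8% and 2.44% of the actin mRNA of these 4 genes in the inhibitor libraries, against 14.5%, 13.0% and 17.1% in the DMSO libraries. Tagln was 9.06 ± 1.53% of the transgelin pair with the inhibitor and 32.6 ± 2.07% with DMSO (SD, n = 3 each). Myl9 was 1.85 ± 0.234% of the regulatory light chains with the inhibitor and 12.5 ± 1.72% with DMSO. In DMSO cultures the muscle forms were the minority within all 7 families compared.

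The shares of the other families differed in the same direction. Cnn1 was 0.366 ± 0.0532% of calponin mRNA with the inhibitor and 1.97 ± 0.142% with DMSO. Tpm1 and Tpm2 were 6.22 ± 0.459% of tropomyosin mRNA with the inhibitor and 12.2 ± 0.717% with DMSO. Myh11 was 0.146 ± 0.0127% of the myosin II heavy chains with the inhibitor and 0.412 ± 0.0594% with DMSO. Flnc was 5.75 ± 0.363% of the filamin pair with the inhibitor and 7.14 ± 0.981% with DMSO, and there the highest inhibitor library (6.15%) almost met the lowest DMSO library (6.16%). All 7 families were separate between groups.

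**Figure D3:**
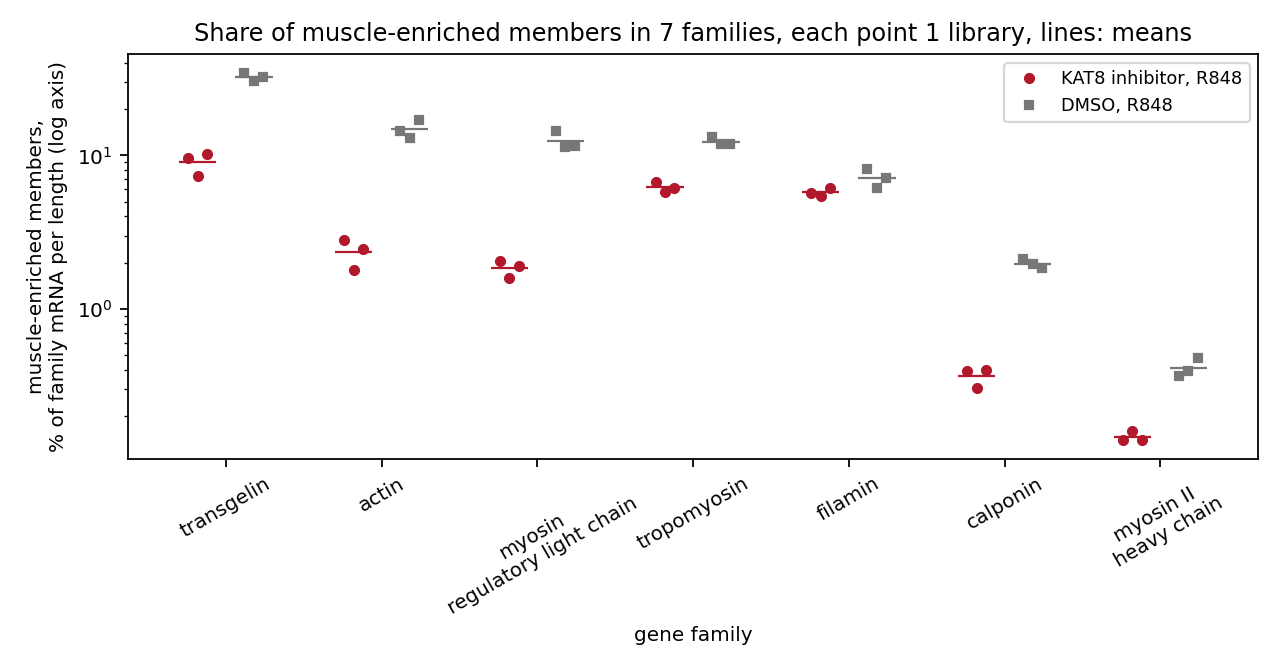
Share of muscle-enriched members in the per-length mRNA of 7 gene families, in percent on a log y axis, with 1 point per library, lines for the means, the inhibitor on the left and DMSO on the right of each family on the x axis. The transgelin share is 9.06% with the inhibitor and 32.6% with DMSO, and the filamin groups almost touch at 6.15% and 6.16%.

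The regulators of these genes changed little in mRNA. Srf stood at 84.1, 81.0 and 76.5 CPM with the inhibitor, against 77.4, 88.1 and 82.5 CPM with DMSO. Its groups overlapped, with a log2 fold change of -0.04 (SE 0.0607) that turned to 0.07 with library totals. Mrtfa, listed among the members under its older symbol Mkl1, stood at 44.9, 49.1 and 47.0 CPM with the inhibitor, against 60.6, 53.0 and 55.7 CPM with DMSO, a log2 fold change of -0.26 (SE 0.0653) whose call was lost with library totals. Mrtfb, or Mkl2, stood at 85.2, 83.9 and 81.6 CPM with the inhibitor, against 79.6, 78.0 and 74.0 CPM with DMSO, a log2 fold change of 0.12 (SE 0.0464) that was called with library totals, at 0.22. Mrtfb was the member whose inhibitor libraries all lay above its DMSO libraries. Myocd, the smooth muscle coactivator myocardin, was at 0 counts in all 6 libraries. These are mRNA levels, and the position of the coactivators in the cell was not measured.

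The 3 inducible members all had lower levels with the inhibitor. Ankrd1, an ankyrin repeat protein induced by stretch, stood at 13.8, 10.9 and 12.8 CPM with the inhibitor, against 39.3, 32.1 and 39.6 CPM with DMSO, a log2 fold change of -1.56 (SE 0.114). Ccn1, the matricellular protein also called Cyr61, stood at 83.2, 70.8 and 77.9 CPM with the inhibitor, against 131, 127 and 130.0 CPM with DMSO, a log2 fold change of -0.74 (SE 0.0606). Ccn2, or Ctgf, stood at 75.2, 67.4 and 73.8 CPM with the inhibitor, against 123, 105 and 108 CPM with DMSO, a log2 fold change of -0.63 (SE 0.0717). No library of either group crossed into the other for these genes, which respond to both SRF coactivators and YAP.

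The rule that chose the members did not read the DNA in front of their start sites. The list was nevertheless built from contractile genes, many of them known SRF targets, and holds Srf itself. A higher share of CArG boxes than over all genes can follow from that choice. RefSeq promoter windows on GRCm38.p6, from 250 bases before to 50 after an annotated start, were at hand for 36 of the 41 members and not for Actb, Actg2, Ctgf, Myh11 and Tagln. An exact CArG box, searched by its standard consensus, which reads the same on both strands, lay in a window of 8 of the 36 (22.2%). The same box lay in a window of 488 of 27025 genes with windows (1.81%) and of 157 of 10385 tested genes (1.51%). By class it was 1 of 11 muscle-enriched members (9.09%), Myl9, and 5 of 16 broadly expressed members (31.2%), namely Actg1, Myl6, Cnn2, Vcl and Lima1. Srf itself and Vil1 were the others. The boxes are shown with 20 bases on each side, on the gene's strand, with the box in capitals, because they sit before members with small and large changes alike.
Myl9, chr2:156775283-156775332, plus: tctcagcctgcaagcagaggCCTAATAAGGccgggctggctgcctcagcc
Cnn2, chr10:79988524-79988573, plus: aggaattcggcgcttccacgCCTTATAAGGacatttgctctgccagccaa
Vcl, chr14:20929151-20929200, plus: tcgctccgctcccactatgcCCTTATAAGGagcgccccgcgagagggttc
Actg1, chr11:120348556-120348605, minus: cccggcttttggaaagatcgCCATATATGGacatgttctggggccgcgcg
Myl6, chr10:128493030-128493079, minus: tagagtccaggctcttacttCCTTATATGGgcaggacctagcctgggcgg
Lima1, chr15:99820167-99820216, minus: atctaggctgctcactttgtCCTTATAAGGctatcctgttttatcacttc
Srf, first box, chr17:46556215-46556264, minus: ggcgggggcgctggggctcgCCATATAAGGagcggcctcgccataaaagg
Srf, second box, chr17:46556195-46556244, minus: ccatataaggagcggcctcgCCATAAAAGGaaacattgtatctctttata
These boxes begin 161 bases before the start in Myl9, 56 in Cnn2, 227 in Vcl, 90 in Actg1, 50 in Myl6, 47 in Lima1, and 82 and 62 in Srf. Cnn2 and Vcl hold the same 10 letters as Lima1, with log2 fold changes of -1.26, -0.70 and -0.62, whereas Actg1 had 0.07 and Srf -0.04. A match is a description of the letters and not of binding, and the absence of one concerns this window alone.

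With 1 mismatch allowed in the central bases, 13 of the 36 members (36.1%) held a box, against 11.3% of all genes with windows. Acta2 then gained a pair of near matches, shown because this gene had the largest change among members at 100 CPM or more with DMSO.
Acta2, 84 bases before the start, chr19:34255428-34255477, minus: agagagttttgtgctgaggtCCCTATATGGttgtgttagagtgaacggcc
Acta2, 34 bases before the start, chr19:34255378-34255427, minus: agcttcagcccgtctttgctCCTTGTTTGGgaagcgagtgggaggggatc
By class these looser matches lay in 3 of 11 muscle-enriched members (27.3%) and 7 of 16 broadly expressed members (43.8%).

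Outside the members, other genes of the actin machinery were more often called lower than higher. Each gene was tested, but the lists were chosen with earlier results of these data known, so their counts are a description too. In 5 lists with 131 tested genes, 80 were lower with the inhibitor and 16 higher, with a median log2 fold change of -0.25, against 26.5% lower and 24.9% higher over all genes. With library totals 64 of these genes were lower and 27 higher. The Arp2/3 complex, which nucleates branched filaments, had 2 of 9 genes lower and 0 higher, and 4 lower without DMSO replicate 1. Those 2 were Actr2, with a log2 fold change of -0.39 (edgeR adjusted p = 8.78e-05), and Arpc1b, with -0.35 (edgeR adjusted p = 0.00187). Both were lower in all 3 inhibitor libraries than in any DMSO library.

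Nucleation-promoting factors and formins had 11 of 23 genes lower and 5 higher. Without inhibitor replicate 1, without DMSO replicate 3 or with library totals, 7 were lower. Abi3, a subunit of a WAVE complex, fell by 1.31 on the log2 scale (edgeR adjusted p = 2.2e-05), at 10.7 ± 0.93 CPM with the inhibitor and 26.6 ± 2.79 CPM with DMSO. Spire1, a nucleator, rose by 0.89 (edgeR adjusted p = 1.08e-05), at 61.6 ± 1.69 CPM with the inhibitor and 33.2 ± 2.01 CPM with DMSO. Filament turnover genes had 20 of 32 lower and 4 higher. Tmsb4x, thymosin β4, which holds actin monomers, fell by 1.17 (edgeR adjusted p = 4.73e-05), at 876 ± 80.5 CPM with the inhibitor and 1976 ± 271 CPM with DMSO. Cap2, a cyclase-associated protein that recycles monomers, fell by 1.46 (edgeR adjusted p = 8e-05), and Twf2, a twinfilin, rose by 0.37 (edgeR adjusted p = 0.038).

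Adhesion plaque genes had the highest share of lower calls among the 5 lists, with 27 of 36 lower and 4 higher. Tgfb1i1, Nexn and Ldb3, all called lower, are also in the list of other smooth muscle genes described below. Bcar1, the scaffold p130Cas, fell by 1.54 (edgeR adjusted p = 5.02e-06), at 18.3 ± 1.69 CPM with the inhibitor and 53.3 ± 4.51 CPM with DMSO. Limd1, a LIM scaffold, rose by 0.84 (edgeR adjusted p = 3.05e-06), at 269 ± 1.21 CPM with the inhibitor and 150.0 ± 6.92 CPM with DMSO. Bundling and membrane-linking genes had 20 of 31 lower and 3 higher, and 13 lower with library totals. Lsp1, a leukocyte actin-binding protein, fell by 1.69 (edgeR adjusted p = 5.15e-06), and Myo1g, a myosin of blood cells, rose by 0.62 (edgeR adjusted p = 4.01e-05).

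Targets of SRF that work through ternary complex factors, the early growth response and AP-1 type, had 1 of 8 genes lower and 2 higher, and 2 lower without inhibitor replicate 2 or without DMSO replicate 3. Fos rose by 1.15 (edgeR adjusted p = 0.000102), at 14.0 ± 1.55 CPM with the inhibitor and 6.3 ± 0.576 CPM with DMSO, and Ier2 fell by 0.96 (edgeR adjusted p = 4.36e-05). Genes of the YAP and TEAD pathway, which shares Ankrd1, Ccn1 and Ccn2 as targets, had 10 of 15 lower and 3 higher. Amotl2, an angiomotin that is also a YAP target, fell by 1.25 (edgeR adjusted p = 0.000236), and Lats1, a kinase that restrains YAP, rose by 0.32 (edgeR adjusted p = 0.00494).

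**Figure D4:**
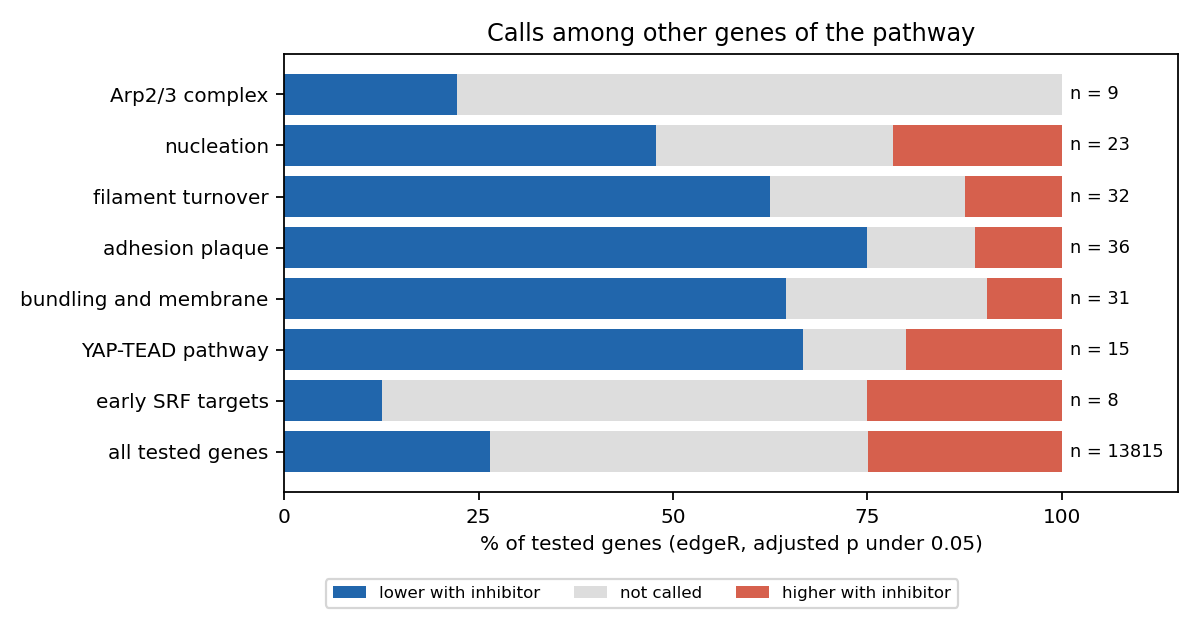
Percent of tested genes called lower, not called and called higher with the inhibitor (x axis) in 7 lists of other actin-related genes and in all 13815 tested genes (y axis), with the number tested beside each bar. Adhesion plaque genes were called lower in 27 of 36 cases, Arp2/3 genes in 2 of 9 and early SRF targets in 1 of 8, against 26.5% of all genes.

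Many markers of cells that could hold the muscle-enriched mRNA were also lower with the inhibitor, and their part in the result was not tested. The counts called in these lists stand beside 26.5% lower and 24.9% higher over all tested genes. Of 20 other smooth muscle genes 13 were tested, 9 of these were lower and 0 higher, and their summed level was 108 to 119 CPM with the inhibitor and 256 to 282 CPM with DMSO. Smtn, smoothelin, the most abundant of them, fell by 1.37 (edgeR adjusted p = 1.56e-06), at 37.6 ± 1.7 CPM with the inhibitor and 97.1 ± 6.38 CPM with DMSO. Synpo2, which binds actin and α-actinin, fell by 2.71 (edgeR adjusted p = 0.000571). Smtn, Hspb1 (78.8 CPM with DMSO) and Cav1 (33.1 CPM with DMSO) held most of the DMSO sum. The smooth muscle genes Myocd and Pcp4 were at 0 counts in all libraries, as was Actn2, which is better known from striated muscle. Kcnmb1, Ppp1r14a, Itga8 and Casq2 had at most 7 counts in any library and were not tested.

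Fibroblast markers were much more abundant. Of 14 tested, 12 were lower and 0 higher with a median log2 fold change of -0.99, against 26.5% lower over all tested genes. The sum of the 14 was 3207 to 3412 CPM with the inhibitor and 6521 to 7457 CPM with DMSO. Sparc, a matrix glycoprotein, fell by 0.98 (edgeR adjusted p = 1.72e-06), at 817 ± 34.6 CPM with the inhibitor and 1612 ± 38.1 CPM with DMSO. Pdgfra, the receptor that marks fibroblasts, was not called, at 442 ± 20.5 CPM with the inhibitor and 418 ± 30.3 CPM with DMSO (edgeR adjusted p = 0.306). None of the 14 was at 0.

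Of all tested genes 26.5% were called lower and 24.9% higher, and the other lists were small or sparse. Their most abundant genes were Pdgfrb for pericytes, which fell by 0.85 (edgeR adjusted p = 1.51e-05), and the titin gene Ttn for striated muscle, which fell by 2.78 (edgeR adjusted p = 0.000407). For epithelium it was the keratin gene Krt19, which fell by 2.79 (edgeR adjusted p = 2.99e-07), and for endothelium the von Willebrand factor gene Vwf, which fell by 2.44 (edgeR adjusted p = 2.01e-07). Of 8 pericyte markers 5 were tested, with 2 lower and 1 higher, a sum of 28.4 to 29.8 CPM with the inhibitor and 46.0 to 47.6 CPM with DMSO, and Higd1b at 0. Of 20 striated muscle genes 6 were tested, with 2 lower and 1 higher, a sum of 3.4 to 4.2 CPM with the inhibitor and 6.85 to 8.23 CPM with DMSO, and Myh7, Myl3 and Tnnt3 at 0. Ttn had 6, 12 and 6 counts with the inhibitor, against 56, 42 and 43 counts with DMSO. Tnnt2, the other gene called lower, passed the filter only through DMSO libraries. Tnnc1, called higher, passed only through inhibitor libraries, so Tnnt2 and Tnnc1 had to differ. Ttn passed mainly through DMSO libraries, with 12 counts in 1 inhibitor library. Of 10 epithelial markers 5 were tested, with 4 lower and 0 higher, a sum of 12.2 to 15.7 CPM with the inhibitor and 69.3 to 77.2 CPM with DMSO, and Esrp1 at 0. Krt19, at 40.4 CPM with DMSO, held much of that DMSO sum. Epcam, Krt5, Cldn4 and Cldn7 had at most 7 counts in any library, and Cdh1 was not called. Of 8 endothelial markers 3 were tested, with 2 lower and 0 higher, a sum of 13.3 to 13.7 CPM with the inhibitor and 55.7 to 57.2 CPM with DMSO, and Cldn5 and Emcn at 0. Vwf, at 9.4 CPM with the inhibitor and 51.1 CPM with DMSO, held most of that sum. Pecam1, Tek and Tie1 had at most 13 counts in any library, and Cdh5 was not called (log2 fold change 0.08). The 11 macrophage markers summed to 8446 to 8468 CPM with the inhibitor and 12855 to 14636 CPM with DMSO, and none was at 0. Lyz2, lysozyme, held much of that sum and fell by 1.04 (edgeR adjusted p = 4.8e-06), at 4190 ± 37.1 CPM with the inhibitor and 8596 ± 632 CPM with DMSO. Without Lyz2, an alternative chosen after the data had been seen, the other 10 summed to 4246 to 4305 CPM with the inhibitor and 4763 to 5417 CPM with DMSO. Some lists share genes, among them Pdgfrb between pericytes and fibroblasts.

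**Figure D5:**
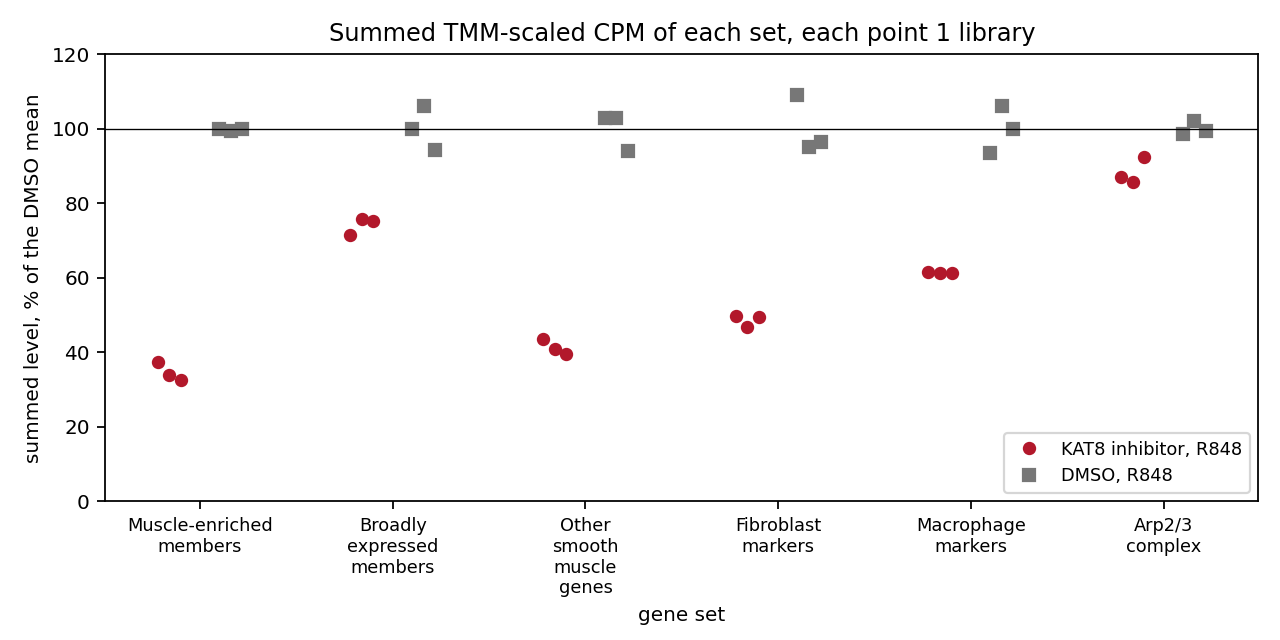
Summed TMM-scaled CPM of 6 gene sets on the x axis as a percent of the DMSO mean on the y axis, 1 point per library, with the inhibitor as circles on the left and DMSO as squares on the right. Muscle-enriched members were at 32.6% to 37.3% with the inhibitor, fibroblast markers at 46.7% to 49.7% and macrophage markers at 61.4% to 61.5%, or 82.1% to 83.3% without Lyz2.

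The muscle-enriched sum was also set against the fibroblast markers of the same library. Because these members were selected on their lower counts with the inhibitor, a lower ratio follows in part from that choice and says nothing about its source. The ratio of the sums was 0.249, 0.24 and 0.218 in the inhibitor libraries, against 0.305, 0.347 and 0.345 in the DMSO libraries. On the log2 scale the muscle-enriched sum differed by -1.53, and by -0.49 once divided by the fibroblast sum. Leaving out Acta2, the ratio was 0.234, 0.227 and 0.202 with the inhibitor and 0.241, 0.278 and 0.277 with DMSO, so the first libraries of both groups almost met. For single genes, Acta2 counts were 0.0763, 0.0646 and 0.0829 of those of Col1a2, a collagen chain, with the inhibitor, against 0.264, 0.282 and 0.271 with DMSO. This division was chosen after the data had been seen. The ratio of the sums, and with it the value of -0.49, depends on which fibroblast markers are summed. Col1a2 (1701 CPM with DMSO) and Sparc (1612 CPM with DMSO) weigh most in the sum, and both were lower with the inhibitor. Pdgfra, at 442 CPM with the inhibitor and 418 CPM with DMSO, was not called.

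Within the inhibitor group, the second library was the lowest for 11 of the 14 muscle-enriched members (78.6%). It was the lowest for 9 of the 14 fibroblast markers (64.3%), for 8 of the 17 broadly expressed members (47.1%) and for 34.7% of all tested genes. The muscle-enriched class without Acta2 and Des, the members most used as cell markers, had a median log2 fold change of -1.86, with sums of 557 to 662 CPM with the inhibitor and 1462 to 1506 CPM with DMSO. Across the 40 tested members, which share libraries and depth, the log2 fold change was set against the log2 mean level per kilobase over all 6 libraries. The Pearson r was 0.52 and the Spearman rank coefficient 0.38 as a description, and the 14 muscle-enriched members gave 0.37 and 0.40. The inhibitor libraries enter both values and the members were chosen on the change, so a positive coefficient follows in part from that.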

How the data were processed

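The authors deposited raw counts for Ensembl genes in 6 libraries, 3 per pretreatment. Per the submitters' processing notes, the build was mm10 and the tools included HISAT2, edgeR and StringTie 1.3.0. The sources used here do not name the counter, annotation release, use of strand or treatment of multi-mapping reads. In the re-analysis, edgeR 4.0.16 in R 4.3.3 (limma 3.58.1) fitted all counts with TMM scaling, filterByExpr (minimum count 10), pretreatment as the only factor and the quasi-likelihood test, with Benjamini-Hochberg adjustment over 13815 genes. Levels are TMM-scaled CPM, or the same per kilobase of summed exons (GENCODE M21) where genes are compared. The SE of a log2 fold change is its size divided by the root of F. The limit of 3 counts covers counting error only. Promoters are from RefSeq on GRCm38.p6, and in 40 of 44 member windows the bases after the start matched a GENCODE transcript.

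The members, classes and lists were chosen with earlier results of these data known. Every member is named. Of each pathway list, the named genes come from the 2 called genes with the largest change in each direction whose groups did not overlap and that reached 5 CPM in the higher group. Of each marker list the most abundant gene and those at 0 were taken. Csf1r, Pdgfra, Col1a2 and Synpo2 were named after their values were seen. Further genes outside the rule for marker lists were also named, among them Hspb1, Cav1, Tnnt2, Tnnc1, Cdh1 and Cdh5. Lists hold no member. The result of 1 further pathway list is not reported here. Libraries were not copies: chi-square per degree of freedom was 9.25 to 14.3 within groups and 85.7 to 103 between them. On simulated data for this comparison over 13815 genes, the fit called 92.0% of genes raised 2-fold, 76.6% of those lowered 2-fold (0.5 of the original) and 12 of 13482 left the same. Only 200 genes were changed in the simulation, against 7113 called in the real contrast, so these rates need not hold there. Alternatives were other scalings and filters, a replicate block, DESeq2 1.42.0, and leaving out each library.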

Additional observations from a re-analysis of the deposited data

How the results depend on the processing

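All 14 muscle-enriched members were called lower in every fit that tested them, and 28 members in all were, whereas 8 lost a call in at least 1: Actb, Actn4, Mkl1, Myh9, Tagln2, Tes, Tpm3 and Tpm4. These fits reuse the contrast that chose the members, so their calls are a description and no support for the difference. Among the 14, Actg2 and Lmod1 passed the main filter only through DMSO libraries. With library totals 9 broadly expressed members were called lower, in place of 15, and Myl12b (0.16) and Mkl2 (0.22) were called higher. The muscle-enriched median was -1.75 and the broadly expressed median -0.51 with library totals, and 27 other actin genes were called higher, in place of 16. A mean of at least 5 CPM removed Actg2, Cnn1, Lmod1 and Myh11 and gave a muscle-enriched median of -1.56, and leaving out Actg2 and Lmod1, added after the data had been seen, gave -1.65. Leaving out each library in turn gave broadly expressed medians of -0.66 to -0.48 and 10 to 14 calls, and 6081 to 6880 genes called in all. Of 476 single-member values under alternatives, 438 moved by less than the spread and 38 by more, and 36 members were below 0 throughout. Actg1 ranged below 0 without DMSO replicate 1 (-0.08) or 3 (-0.05), and was not called there. By longest transcript the smooth muscle actins were 12.0% of actin mRNA with DMSO, against 14.9%. Other families depended more on the length used. The share of Tpm1 and Tpm2 was then 9.67% with the inhibitor and 17.8% with DMSO, against 6.22% and 12.2%. That of Myl9 was 1.22% with the inhibitor and 8.28% with DMSO, against 1.85% and 12.5%. Allowing 1 mismatch raised the members with a CArG box from 8 to 13. DESeq2 called 6493 genes. With the replicate number as a block, 6725 genes were called in place of 7113 and 35 members were lower. Same-numbered libraries did not deviate together (r of -0.039, -0.002 and 0.024). With 3 libraries a group this cannot show whether they share an animal or culture. For Actg2 and Lmod1, with 2 to 6 counts per inhibitor library, depth limits how large a fold can be measured. Some listed genes, Ldb3 and Tnnt2 among them, also passed the filter only through DMSO libraries. Tead4 and Ttn passed mainly through them, each with 12 counts in 1 inhibitor library.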
